A study of Mus musculus with 3 samples.

Results

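Mouse genes that have not been given a functional name carry provisional symbols, either Gm followed by digits (predicted gene models) or a clone number ending in Rik (RIKEN cDNA clones). Of the 3264 genes of the deposited mitral valve single-cell matrix that had no empty values, 655 had such a symbol. The 248 of these with a value above 0 in at least 1% of the 16383 cells are described here, 154 of them Gm models and 94 Rik clones. The share of cells with a transcript chose the members, so it is given as a description. Just inside the threshold were Gm9913 and Gm37184 with 165 cells each and 5033417F24Rik with 164, and just outside it were 4930532G15Rik with 163, Gm16048 with 162 and 2010009K17Rik with 161.

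The tissue was the mitral valve of B6.129-Fbn1tm2Rmz/J mice, whose mgR allele lowers the amount of fibrillin-1 without removing its coding sequence, and the 3 libraries were labelled mgR/mgR and made with 10x Genomics chemistry. The study used 12-week-old mgR mice for its valve single-cell work, with Fbn1+/+ littermates as controls, and also profiled nuclei, including nuclei from rapamycin-treated mgR mice. The matrix did not tie a cell to a mouse, genotype, treatment or preparation. It was therefore treated as 1 sample, no test between conditions or between cell types was possible, and all intervals below cover counting error only. The listed genes lie on chromosomes 1 to 3 and held a median of 15.7% of each cell's transcripts.

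Depth and cell groups bear on each value. The cells carried 503 to 23127 unique molecular identifiers (UMIs, tags that count captured RNA molecules), with a median of 5349. Barcode order started anew once, giving runs of 14222 and 2161 cells that shared 11 barcodes. The 3149 cells with at least 2 of Prrx1, Col3a1 and Dpt and no Egfl7 are called fibroblasts, the 8966 cells with Egfl7 and fewer than 2 of those genes endothelial cells, and the 470 cells with Ptprc, the leukocyte antigen CD45, and neither pattern Ptprc cells. A list of fibroblast markers summed to 45.5 UMIs per 10000 in fibroblasts, 9.69 in endothelial cells and 3.45 in Ptprc cells, an endothelial list to 1.88, 22.0 and 1.63, and a leukocyte list to 0.399, 0.419 and 37.0. These sums include the genes that set the groups. Cells with both Egfl7 and at least 2 fibroblast genes were in no group.

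A provisional symbol says that a gene lacks a name, not that it makes no protein. Many such loci give long noncoding RNAs, among them antisense RNAs read from the opposite strand of a coding gene, divergent RNAs that start beside a coding gene's promoter and run the other way, and host RNAs from which microRNAs are cut. Others are coding genes whose products have not been studied, often members of recent gene duplications. Long noncoding RNAs are commonly less abundant and more restricted to a cell type than messenger RNAs.

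In the GENCODE annotation of GRCm38, 92 members were antisense RNAs, 56 protein-coding genes, 44 intergenic long noncoding RNAs, 40 processed transcripts and 13 sense-intronic RNAs, and 3 had no entry. Relative to the nearest coding gene, 132 members (53.2%) overlapped it on the opposite strand, against 19% of the named coding genes tested. Another 37 (14.9%) ran divergently from it, against 17.1% of named coding genes, and 22 (8.87%) overlapped it on the same strand, against 1.88%. Where a member overlaps a gene on the opposite strand, the reads of the pair cannot be told apart unless counting used strand, which is not given in the sources used here. For same-strand overlaps, strand cannot tell the reads of the pair apart. The median member had a UMI in 3.05% of cells and an exonic length of 1985 bases, and the median named coding gene had a UMI in 13.6% of cells and 5115 bases. The symbols thus covered mostly sparse transcripts that lie on top of, or beside, a coding gene.

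**Figure D1:**
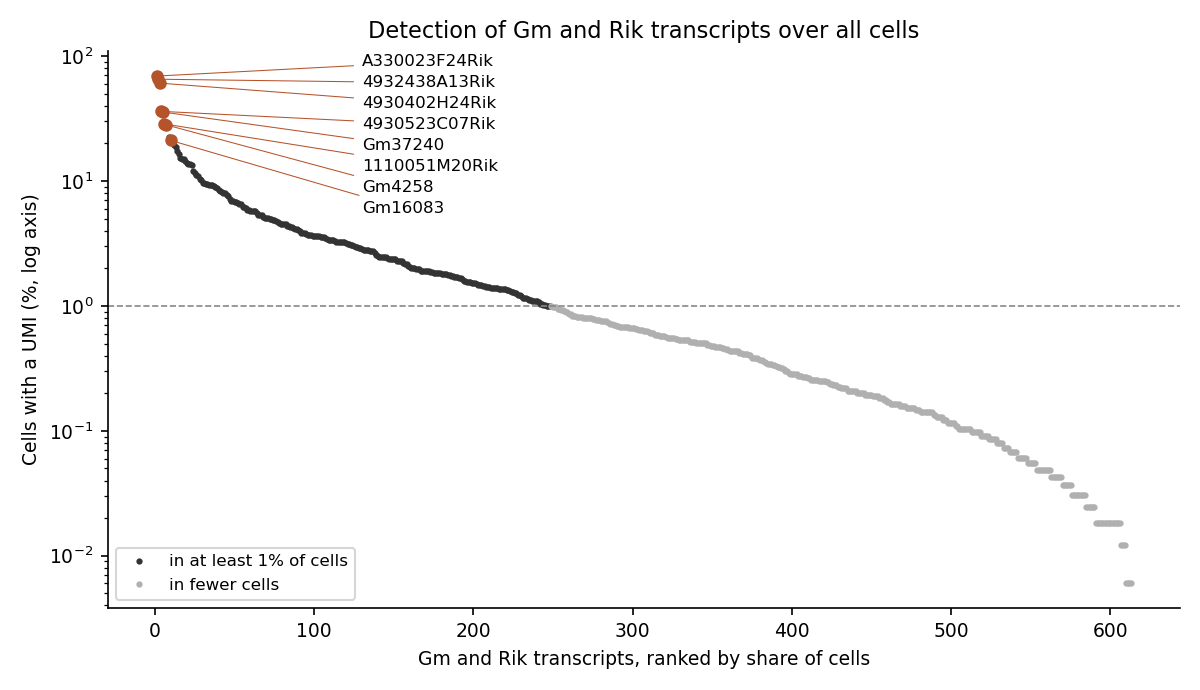
Share of the 16383 cells with a UMI (y axis, percent, log axis) for each Gm and Rik symbol with any UMI, ranked by that share (x axis), with the members in black, the 8 members of highest level in orange and the threshold as a dashed line. Of 655 symbols, 42 had no UMI and are not drawn, 101 were found in under 0.1% of cells and 264 in 0.1 to 1%, while 11 members were found in 20% of cells or more.

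A few members held much of the signal. All members together had 351584 UMIs, of which the 8 with the most held 131207, or 37.3%. Members made up 0.425% of UMIs in fibroblasts, 0.336% in endothelial cells and 0.358% in Ptprc cells, and the median cell of these groups had a UMI of 17, 13 and 12 members. The median depth of the groups fell in the same order, at 6063, 5365.5 and 4851 UMIs, so the numbers of members are not at equal depth. Levels below are UMIs per 10000 UMIs, given with 95% exact Poisson intervals, and come from libraries that tag the RNA end, so they are not divided by gene length.

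A330023F24Rik, the host RNA of the microRNAs miR-29b-2 and miR-29c, had a UMI in 69.2% of cells. Its level was 3.55 in fibroblasts (3.47 to 3.63, 7420 UMIs), 3.32 in endothelial cells (3.27 to 3.37, 17841 UMIs) and 2.03 in Ptprc cells (1.85 to 2.22, 493 UMIs). The fibroblast and endothelial levels lay within 1.07-fold of each other and the Ptprc level was below both. Gm4258, the host RNA of miR-181a-1 and miR-181b-1, had a level of 1.91 in fibroblasts (1.85 to 1.97), 0.632 in endothelial cells (0.611 to 0.653) and 1.68 in Ptprc cells (1.52 to 1.86). Unlike the miR-29 host, it was 3.02-fold higher in fibroblasts than in endothelial cells. MiR-29 is known to act on mRNAs of collagens and other matrix proteins and miR-181 on lymphocyte signalling, and the mature microRNAs themselves were not measured here. The mature sequences that the hosts carry on their own strand are shown because they tell the families apart, with the seed (bases 2 to 8, which pairs with targets) in capitals, from RefSeq on GRCm38.p6.
miR-29b-3p, chr1:195037091-195037113, plus strand: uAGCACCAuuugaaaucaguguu
miR-29c-3p, chr1:195037600-195037621, plus strand: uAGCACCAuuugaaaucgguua
miR-181a-5p, chr1:137966468-137966490, plus strand: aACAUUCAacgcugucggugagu
miR-181b-5p, chr1:137966650-137966673, plus strand: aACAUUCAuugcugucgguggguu
Each host thus carries a pair with 1 shared seed, AGCACCA in A330023F24Rik and ACAUUCA in Gm4258.

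Among the other abundant members, 4932438A13Rik, a large protein-coding gene, was nearly level across groups, at 2.64 in fibroblasts, 2.44 in endothelial cells and 2.66 in Ptprc cells. 4930402H24Rik, which starts 89 bases from the attractin gene Atrn and runs away from it, was at 2.22, 2.68 and 1.98. The remaining 4 differed more. 4930523C07Rik was at 2.08 in fibroblasts, 0.965 in endothelial cells and 0.655 in Ptprc cells, and 1110051M20Rik at 1.70, 0.574 and 0.593. Both were thus highest in fibroblasts, by 2.16-fold and 2.96-fold over endothelial cells. Gm37240 and Gm16083 went the other way, at 0.494 and 0.410 of their endothelial level in fibroblasts. Gm37240 spans several coding genes on its own strand, whose reads strand cannot separate from its own. Gm16083, antisense to Cd55 with starts 168 bases apart, was at 0.443 in fibroblasts, 1.08 in endothelial cells and 0.070 in Ptprc cells, and Cd55, an inhibitor of complement on the cell surface, had a fibroblast to endothelial ratio of 0.129.

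**Figure D2:**
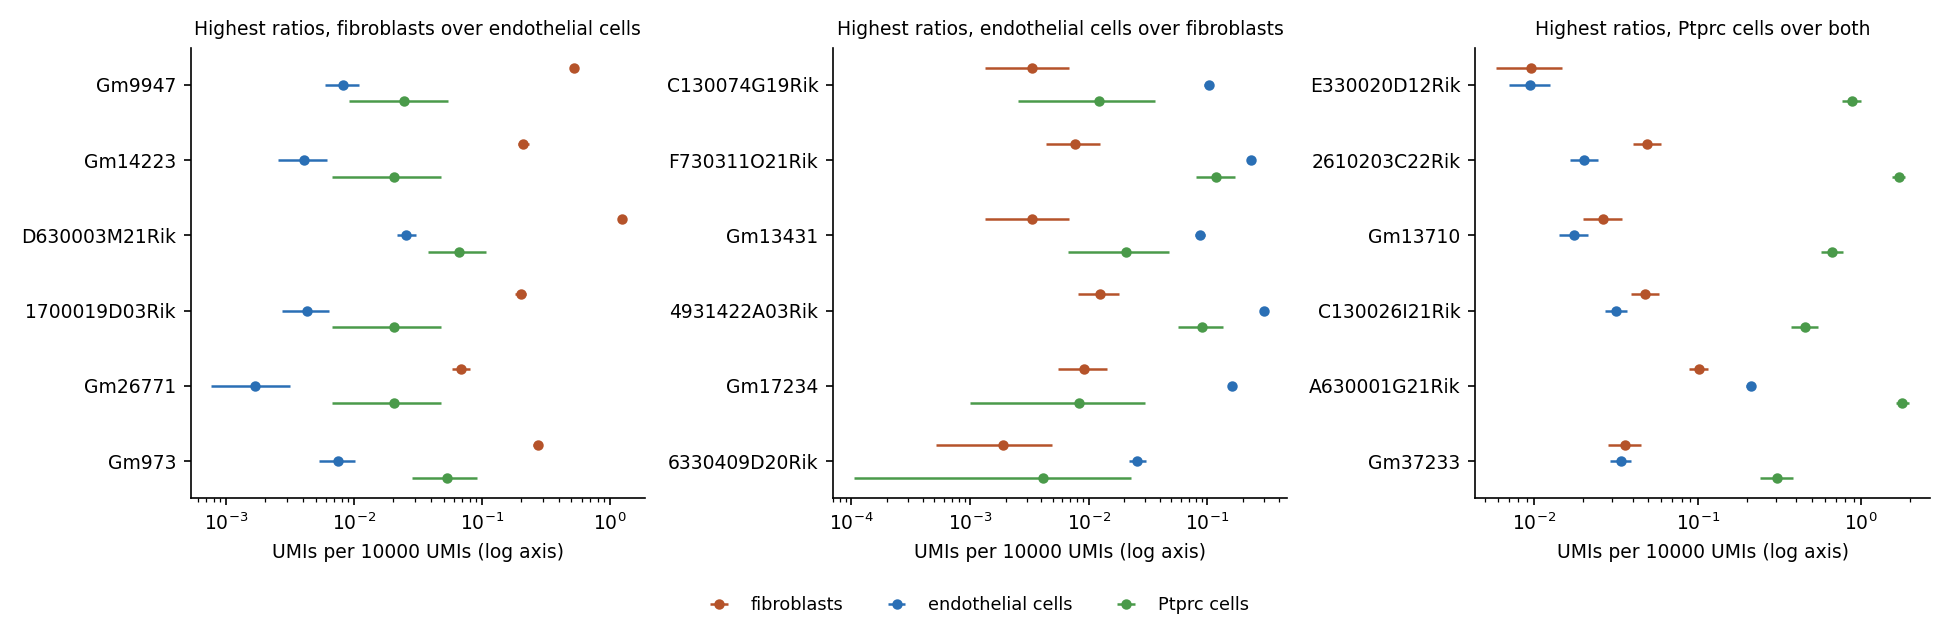
Level of named members (x axis, UMIs per 10000 UMIs, log axis) in fibroblasts, endothelial cells and Ptprc cells, with 95% exact Poisson intervals as bars. The panels hold the 6 members with the largest ratio in each comparison; Gm9947, for example, spans from 0.00818 in endothelial cells to 0.526 in fibroblasts.

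Between fibroblasts and endothelial cells, 129 members (52.0%) lay within 1.5-fold, against 55.1% of the 2259 genes tested. At 4-fold or more, 23 members (9.27%) were higher in fibroblasts, against a background of 9.03% of genes tested, and 17 (6.85%) were higher in endothelial cells, against 6.73%. Both shares lay close to the background. The median ratio of fibroblasts over endothelial cells was 1.17 for members and 1.02 for all genes tested. By the group with the highest level, 122 members (49.2%) peaked in fibroblasts, 67 (27.0%) in endothelial cells and 59 (23.8%) in Ptprc cells, against 35.9%, 31.0% and 33.0% of all genes tested. Ptprc cells were 2.87% of all cells, so a sparse transcript confined to them could miss the 1% threshold. Members were sparser than named coding genes, with medians of 3.05% and 13.6% of cells, so these shares are not on equal terms. The part of the threshold in them was not tested.

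The steepest fibroblast member was Gm9947, antisense to Msc, the gene of the helix-loop-helix repressor musculin. It had 1100 UMIs in fibroblasts, a level of 0.526 (0.496 to 0.558), and 44 UMIs in endothelial cells, a level of 0.00818 (0.00594 to 0.0110), with 6 UMIs in Ptprc cells. That was a ratio of 64.3 (47.6 to 89.0), and Msc itself had a ratio of 77.0. The ratio was 58.5 in the larger barcode run and 110.6 in the smaller, which held 5 endothelial UMIs, while the fibroblast level was 0.526 and 0.532. With every cell thinned to 2000 UMIs, Gm9947 was found in 29.3% of fibroblasts with an Msc UMI (58 of 198, exact binomial interval 23.1 to 36.2%) and in 6.96% of those without (199 of 2859, 6.05 to 7.96%). The antisense RNA was thus found more often in fibroblasts with Msc, with the limit on strand given above.

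D630003M21Rik, next to the transglutaminase gene Tgm2, was at 1.25 in fibroblasts (2614 UMIs), 0.0257 in endothelial cells (138 UMIs) and 0.0659 in Ptprc cells. Its ratio was 48.7 (41.1 to 58.3), whereas that of Tgm2 was 0.104, the opposite direction. 1700019D03Rik was at 0.201 in fibroblasts and 0.00428 in endothelial cells, a ratio of 47.1, and its neighbour Hibch, which encodes an enzyme of valine breakdown, at a ratio of 1.65. Thinned fibroblasts with and without a Hibch UMI held 1700019D03Rik at 4.23% and 4.43%, a gap inside either interval. D630003M21Rik and 1700019D03Rik thus passed the fold in fibroblasts beside genes that did not. Gm973 was at 0.273 in fibroblasts and 0.00744 in endothelial cells, a ratio of 36.7 (26.6 to 52.0).

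Gm14223 was at 0.210 in fibroblasts and 0.00409 in endothelial cells, a ratio of 51.5 (33.6 to 83.0). Gm26771, antisense to Sfrp2, whose product is a secreted modulator of Wnt signalling, was at 0.0689 and 0.00167, a ratio of 41.2 (21.1 to 91.8) from 144 and 9 UMIs, with Sfrp2 at 19.4. The other fibroblast members ranged down to 4.35 for Gm14066. They included Gm37184, which lies 83872 bases upstream of Dpt on the same strand and had a ratio of 19.8. Dpt was one of the genes that defined the fibroblasts. Of the 23, 22 kept their direction in the smaller run, the exception being Gm26671. Here and below, members past a fold were chosen on both runs together, so their direction by run is a description and not a separate check.

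Gm13986 starts 674 bases from Thbs1, the gene of the matrix protein thrombospondin 1, and runs away from it. It was at 0.593 in fibroblasts and 0.0312 in endothelial cells, a ratio of 19. On the log2 scale the ratio was 4.25 for Gm13986 and 3.05 for Thbs1. Its promoter, from 250 bases before to 50 after the RefSeq start, is shown as an example of a shared intergenic stretch, with the AP-1 word TGACTCA, or TGAGTCA where it reads on the other strand, in capitals.
Gm13986 promoter, GRCm38.p6, chr2:118111153-118111452, minus strand: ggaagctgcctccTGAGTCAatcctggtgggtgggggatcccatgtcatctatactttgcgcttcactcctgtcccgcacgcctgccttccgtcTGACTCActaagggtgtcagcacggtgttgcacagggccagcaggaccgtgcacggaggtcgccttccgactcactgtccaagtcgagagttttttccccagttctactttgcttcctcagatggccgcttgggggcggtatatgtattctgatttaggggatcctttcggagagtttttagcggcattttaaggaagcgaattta
The word occurred on either strand in 5.20% of 32851 mouse RefSeq promoters of this length. A match of letters is a description and not evidence of binding.

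Of the endothelial members, F730311O21Rik was at 0.233 in endothelial cells (0.22 to 0.246, 1253 UMIs), 0.00765 in fibroblasts (16 UMIs) and 0.119 in Ptprc cells (29 UMIs), a ratio of 30.4 (18.7 to 53.4) over fibroblasts. 4931422A03Rik was at 0.303 in endothelial cells (0.289 to 0.318, 1631 UMIs), 0.0124 in fibroblasts (26 UMIs) and 0.0906 in Ptprc cells, a ratio of 24.4 (16.6 to 37.4). For each, the nearest coding gene was not past the 4-fold. Tmcc2 beside F730311O21Rik had a ratio of 2.85, in the same direction, and Fbxo3 beside 4931422A03Rik one of 0.922. In row order, F730311O21Rik also adjoined Nuak2, the gene of an AMPK-related kinase, with 17.9, and 4931422A03Rik adjoined Lmo2, a transcription cofactor of blood and endothelial cells, with 23.3. Their promoters are shown for the ETS core GGAAGT, in capitals, since ETS factors are known regulators of endothelial genes.
F730311O21Rik promoter, GRCm38.p6, chr1:132341834-132342133, plus strand: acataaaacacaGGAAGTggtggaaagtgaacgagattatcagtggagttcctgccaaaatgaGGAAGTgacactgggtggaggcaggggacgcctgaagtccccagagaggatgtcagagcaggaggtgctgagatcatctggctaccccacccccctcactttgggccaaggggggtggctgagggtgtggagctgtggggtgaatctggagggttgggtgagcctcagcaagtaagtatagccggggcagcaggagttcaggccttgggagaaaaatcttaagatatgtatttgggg
4931422A03Rik promoter, GRCm38.p6, chr2:104028312-104028611, minus strand: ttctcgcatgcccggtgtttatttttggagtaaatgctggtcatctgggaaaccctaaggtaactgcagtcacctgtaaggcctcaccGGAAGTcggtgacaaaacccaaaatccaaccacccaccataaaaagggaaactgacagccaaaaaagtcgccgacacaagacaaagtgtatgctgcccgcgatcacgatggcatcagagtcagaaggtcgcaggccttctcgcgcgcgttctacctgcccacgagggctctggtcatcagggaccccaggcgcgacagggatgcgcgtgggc
GGAAGT or its reverse ACTTCC occurred in 23.8% of the 32851 promoters, so matches at this rate are common. The RefSeq start used for F730311O21Rik differs from its GENCODE start.

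The remaining steep endothelial members rested on fewer UMIs. C130074G19Rik had 553 UMIs in endothelial cells and 7 in fibroblasts, a ratio of 30.7 (14.8 to 76.7), and its neighbour Mark1, a microtubule-associated kinase gene, was higher in fibroblasts, at 0.0238 for endothelial cells over fibroblasts. Gm13431 had 469 and 7 UMIs, a ratio of 26.0 (13 to 65.1), and the cyclooxygenase gene Ptgs1 beside it 30.7. Gm17234 had 875 and 19 UMIs, a ratio of 17.9 (11.4 to 29.9), with Spats2l at 0.726. Thinned endothelial cells held Gm17234 in 4.31% of those with a Spats2l UMI (3.55 to 5.18%) and 2.50% of those without (2.12 to 2.93%). Gm17234 overlaps Spats2l on the opposite strand, so the limit on strand applies. 6330409D20Rik had 139 and 4 UMIs, a ratio of 13.5 (5.16 to 50.3), with the adaptor gene Sh2d3c at 13.7. Thinned endothelial cells held Gm13431 at 2.24% with and 1.32% without a Ptgs1 UMI, and 6330409D20Rik at 1.23% and 0.436% for Sh2d3c, with separate intervals. Intervals overlapped for F730311O21Rik and Tmcc2 (4.88% and 4.07%) and for 4931422A03Rik and Fbxo3 (7.45% and 5.68%). By their ratios, some pairs thus moved together and others apart, and detection in the same cells did not always follow the ratios. All 17 endothelial members kept their direction in both runs, but only 9 passed 4-fold in the smaller run. There Gm13431 had 46 UMIs in endothelial cells and 0 in fibroblasts, and 6330409D20Rik had 36 and 0. Their ratios of 3.16 and 2.47 in that run are lower bounds at the floor of 3 UMIs, counted as not passing. A list of 4 cardiomyocyte markers summed to 1.52 in endothelial cells and 0.111 in fibroblasts. Ttn at 1.07 and Xirp2 at 0.416 made up most of the endothelial sum, whereas Tnnt2 was at 0.0327 in endothelial cells and 0.0383 in fibroblasts and Mybpc3 at 0.0039 and 0, and the list's part in these ratios was not tested.

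In Ptprc cells, compared with fibroblasts and endothelial cells without a Ptprc UMI, 13 members (5.24%) were at least 4-fold higher, against a background of 6.42%. E330020D12Rik had the largest ratio of the members in this comparison. It had 213 UMIs in the 470 Ptprc cells, a level of 0.877 (0.763 to 1.0), and 13 in the others, a level of 0.00178, a ratio of 491 (281 to 938). 2610203C22Rik had 411 and 87 UMIs, levels of 1.69 and 0.0119, a ratio of 142 (112 to 181). Their nearest coding genes were past the same fold from few UMIs, Shcbp1l at 21.4 (8.51 to 51.9, 10 and 14 UMIs) and Vxn at 89.97 (22.5 to 517, 9 and 3 UMIs). Gm13710 was at 0.667 and 0.0122, a ratio of 54.6 (41.9 to 71.5), beside Tfpi, the gene of the tissue factor pathway inhibitor, at 0.523.

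C130026I21Rik and A630001G21Rik lie in the Sp100 and Sp110 region of chromosome 1, where near-identical copies make the assignment of reads uncertain. C130026I21Rik was at 0.453 in Ptprc cells and 0.0309 in the others, a ratio of 14.7 (11.6 to 18.5) that was 21 in the larger run and 5.83 in the smaller. Its nearest coding gene, Slc16a14, of the monocarboxylate transporter family, was at 23.2. A630001G21Rik was at 1.79 and 0.164, a ratio of 10.9 (9.77 to 12.2), and Sp100, which encodes a protein of nuclear bodies, at 2.22. Thinned Ptprc cells held A630001G21Rik at 28.9% with and 31.2% without an Sp100 UMI, a gap smaller than either interval. Gm37233 was at 0.305 and 0.0321, a ratio of 9.48, with Ccdc115 at 0.598. The other 7 ranged from 6.50 for Gm15832 to 4.03 for Gm10138. All 13 kept their direction in both runs, on which together they had been chosen.

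The endothelial cells were split by pairs of genes into a Prox1 and Kif26b group of 2715 cells, a Tmem163 and Kcnh1 group of 726 and a Selp and Fmo2 group of 1342, leaving out cells with UMIs of more than 1 pair or of none. Prox1 is a transcription factor of lymphatic and valve endothelium, and Selp encodes the adhesion molecule P-selectin. At 2-fold over the other groups, 9 members (3.63%) were higher in the Prox1 group, against a background of 3.76%. In the Tmem163 group 14 (5.65%) were, against 5.49%, and in the Selp group 21 (8.47%), against 5.84%. The Selp share was above its background, and 20 of those 21 were noncoding, as were 189 of the 248 members. No minimum of UMIs applied to these counts, and members were sparser, with a median of 584.5 UMIs against 3079 for named coding genes. The part of counting error in the Selp share was not tested. In the smaller run, which held fewer cells, 8 of the 9 Prox1 members kept their direction and 4 passed the fold, for Tmem163 13 of 14 and 10, and for Selp 17 of 21 and 10. A ratio held at the floor of 3 UMIs counted here as not passing, as for Gm13269 with 7 and 0 UMIs and a bound of 0.95. The cardiomyocyte list was at 2.92 in the Tmem163 group, with Ttn at 1.51, Xirp2 at 1.37, Tnnt2 at 0.0430 and no Mybpc3 UMI, and its part in the ratios of that group was not tested.

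In the Prox1 group, Gm16685 had 100 UMIs against 4 in the other groups, a level of 0.0632 and a ratio of 18.5 (7.02 to 69.4), and its neighbour Il7, a cytokine gene, had 24.3. Gm13269 was at 0.0360, against 0.0108 in the Tmem163 and 0.00423 in the Selp group, a ratio of 5.28, with the calcium channel subunit gene Cacnb2 at 4.69. Gm13269 overlaps Cacnb2 on the opposite strand, so the limit on strand given above applies to this pair. Thinned Prox1 cells held Gm13269 in 4.75% of cells with a Cacnb2 UMI (15 of 316) and in 0.135% of those without (3 of 2225), a difference beyond both intervals. In the smaller run Gm13269 had 7 UMIs in the Prox1 group and 0 in the other groups, the same direction. A530013C23Rik was at 0.0278 in the Prox1 group, had no UMI in the Tmem163 group and was at 0.00987 in the Selp group, a ratio of 4.66, beside the transcription factor gene Cebpb at 6.04. Gm37422 was at 0.0651, 0.0172 and 0.0296, a ratio of 2.63, with Smyd2 at 1.15.

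In the Tmem163 group, Gm28609 was at 0.383 (0.329 to 0.443, 178 UMIs), against 0.0676 in the Prox1 and 0.113 in the Selp group. Its ratio of 4.69 (3.80 to 5.79) stood beside 1.94 for the lipid kinase gene Pik3c2b. The smaller run held 35 cells of this group and 2 UMIs of Gm28609, with a ratio of 1.18. 1110018N20Rik was at 0.0602 in the Tmem163 group, 0.00821 in the Prox1 and 0.0423 in the Selp group, a ratio of 3.21. Gm28154 had a ratio of 2.37 beside Pi15 at 0.411, and 2700033N17Rik one of 2.28 beside the homeobox gene Meis2 at 1.04.

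In the Selp group, Gm13652 had 120 UMIs against 8, a level of 0.169 (0.140 to 0.202) and a ratio of 43.3 (21.3 to 103). It had no UMI in the Tmem163 group, which allows a level of up to 0.00793, and none in Ptprc cells, but was at 0.0674 in fibroblasts. Mtx2 beside it, the gene of a mitochondrial import protein, had a ratio of 1.06. Gm17234 was at 0.453 (0.405 to 0.505, 321 UMIs), against 0.0398 in the Prox1 and 0.0129 in the Tmem163 group, a ratio of 13.4 (10.3 to 17.7), with Spats2l at 1.10. The ratio of Gm17234 was 14.6 in the larger run and 9.74 in the smaller. Gm16751 had a ratio of 3.02 beside the lipin gene Lpin3 at 2.93. Gm13986, the divergent partner of Thbs1, had 26 UMIs in the Selp group and 26 in the others, a ratio of 2.89, with Thbs1 at 0.833 and no Gm13986 UMI in this group in the smaller run.

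**Figure D3:**
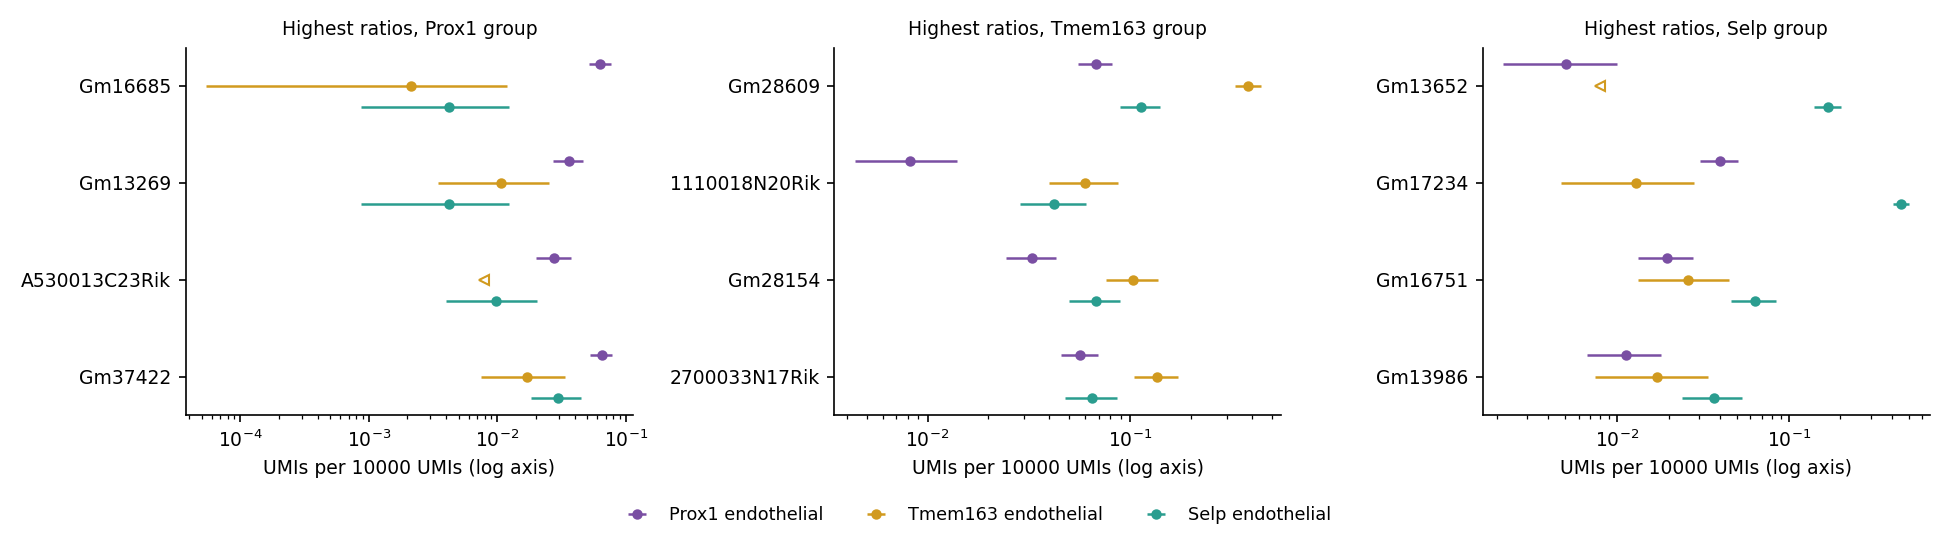
Level of the 4 members with the largest ratio in each group (x axis, UMIs per 10000 UMIs, log axis) in the Prox1, Tmem163 and Selp endothelial groups, with 95% exact Poisson intervals; an open triangle marks the upper bound where a group had no UMI. Gm17234 reaches 0.453 and Gm13652 0.169 in the Selp group, above their levels in the other groups.

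Members past a fold often sat beside a gene past the same fold. Taking the coding genes in the rows directly above and below, 12 of 23 fibroblast members (52.2%) had such a neighbour, against 24 of the 223 other members (10.8%). For endothelial members it was 13 of 16 (81.3%) against 15 of 230 (6.52%), and for Ptprc members 5 of 13 (38.5%) against 18 of 233 (7.73%). Among the endothelial groups it was 6 of 9 (66.7%) for Prox1, 2 of 13 (15.4%) for Tmem163 and 6 of 21 (28.6%) for Selp, against 5.06%, 8.58% and 11.6% of the other members. The share was above that of the other members in each comparison, by the least in the Tmem163 group, where 2 members showed it.

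By annotated position, chosen after seeing the data, the nearest coding gene was past the same fold for 57.1% of fibroblast members (12 of 21), 71.4% of endothelial (10 of 14) and 50% of Ptprc members (5 of 10). Named coding genes past the fold had a nearest coding gene past it in 19.6%, 15.7% and 10.4% of cases. In the endothelial groups the shares were 44.4% of Prox1 members against 6.35% of named coding genes past the fold and 30% of Selp members against 13.8%, but in the Tmem163 group the order was the reverse, 9.09% (1 of 11) against 18.5%. Without pairs whose coding gene defined a cell group, such as Gm37184 and Dpt, the fibroblast share was 55% (11 of 20). The counts of members are small, and overlapping pairs may share reads.

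**Figure D4:**
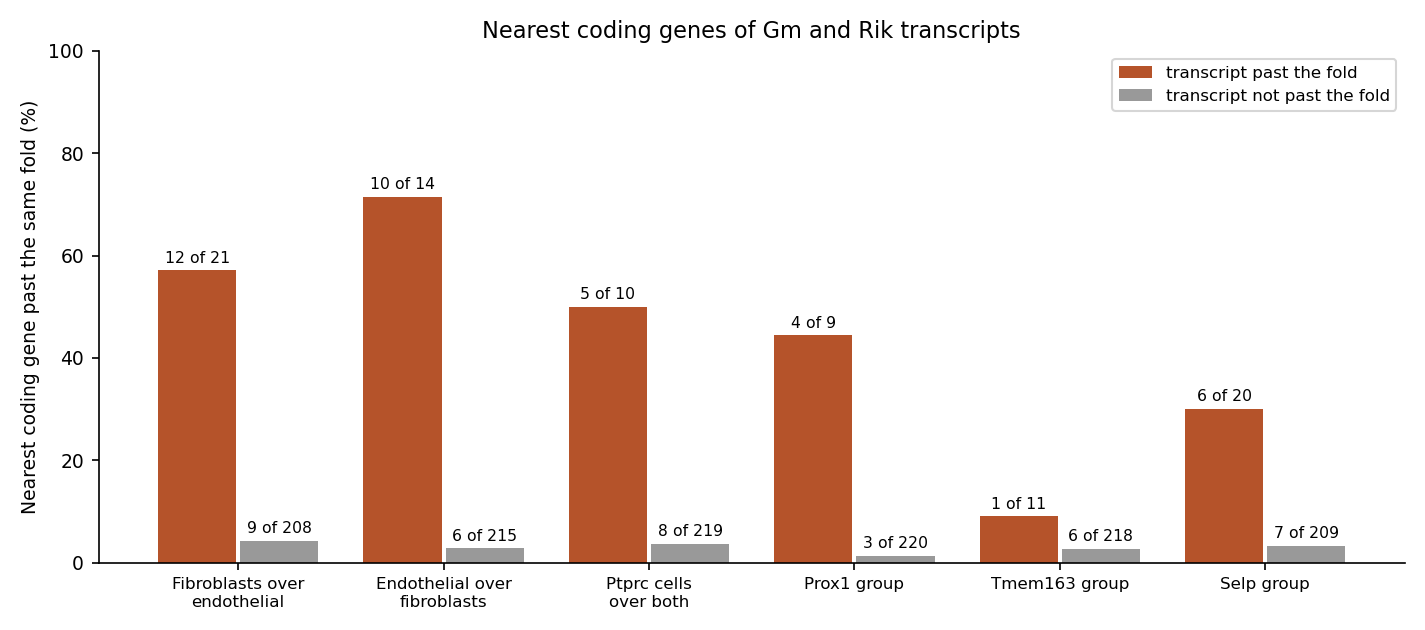
Share of members (y axis, percent) whose nearest coding gene by annotated position was past the same fold, for members past the fold (orange) and the other members (grey) in each of the 6 comparisons, with the counts above each bar. The orange bars run from 71.4% for endothelial members to 9.09% for the Tmem163 group, and the grey bars stay at or under 4.33%.

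Over the 229 members with a tested nearest coding gene and enough UMIs, the log2 ratio of fibroblasts over endothelial cells had a Pearson r of 0.568 and a Spearman rho of 0.573 with that of the gene. These are values across genes of 1 sample, which share libraries and cells and, where they overlap, may share reads. Within 10000 bases r was 0.710 (184 members), and beyond it 0.104 (45 members). For overlaps on the opposite strand r was 0.705 (123 members), and for divergent pairs, which do not overlap and so share no reads by position, 0.845 with a rho of 0.519 (35 members), where most points lie near 0 and a few far from it. For members downstream of the gene on its own strand r was 0.021 with a rho of 0.369 (22 members). Without pairs whose coding gene defined a cell group, r over all arrangements was 0.563 (223 members). Among 1604 named coding genes and their nearest coding genes r was 0.226, and among the 284 divergent ones 0.0954.

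**Figure D5:**
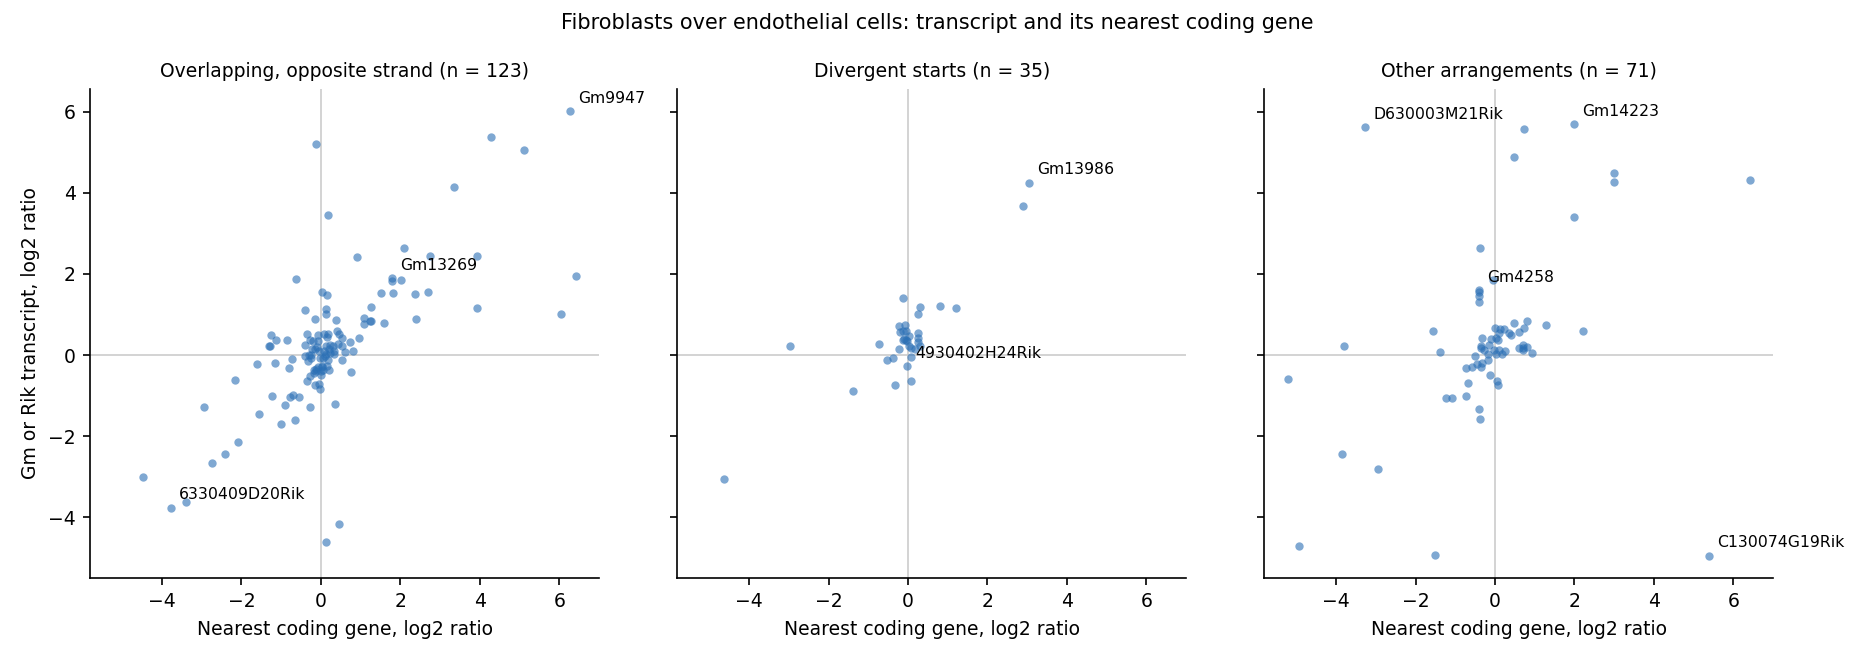
Log2 ratio of fibroblasts over endothelial cells for each member (y axis) against its nearest coding gene (x axis), in separate panels for opposite-strand overlaps (123 points), divergent pairs (35) and all others (71). Gm9947 lies at 6.01 with Msc at 6.27, and Gm13986 at 4.25 with Thbs1 at 3.05.

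Of the members, 26 lay in 8 loci of at least 3 members, each within 100000 bases of the next. The share of other genes in such loci was not counted, so no excess of clustering is claimed. At Cd55 and its copy Cd55b, Gm15674 and Gm15675 were 8.05-fold and 6.99-fold higher in endothelial cells than in fibroblasts, and Gm16083 2.44-fold. At the miR-181 locus, Gm4258, Gm26936, Gm26930 and A430106G13Rik were 3.02-fold, 2.75-fold, 2.47-fold and 2.95-fold higher in fibroblasts. Their positions overlap, so they cannot be taken as separate measurements. Beside Pi15 and Crispld1, Gm28154, Gm16070 and Gm28153 were 2.01-fold, 1.77-fold and 2.28-fold higher in fibroblasts. Members of a locus shared a direction in these 3 cases. Beside the miR-29 host they did not, with A330023F24Rik at 3.55 in fibroblasts and 3.32 in endothelial cells, Gm16897 at 0.0899 and 0.0959, and Gm32250 at 0.158 and 0.196.

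The 4 clustered loci on chromosome 2 held 13 protein-coding members of the zinc-finger family, such as Gm14399, Gm14296 and Gm14326, which bind DNA and arose by duplication. Their ratios of fibroblasts over endothelial cells ran from 0.819 to 2.02, with 11 of 13 above 1 and none at 4-fold. The median ratio was itself above 1, at 1.17 for all members and 1.02 for all genes tested. The copies are alike in sequence, so the split of reads among them is uncertain.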

How the data were processed

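The submitters' processing notes name Cell Ranger 7.1.0 and mm10. The deposited values are natural log values, made by the authors with Seurat by dividing each UMI count by the cell's total, scaling to 10000 and taking ln(1 + x). Counts had been planned for, but since every value and cell total came out whole within 0.02, UMIs were recovered from them. The annotation release and strand setting are not given in the sources used here. A gene with 11958 empty values was left out. Levels are summed UMIs per 10000, with exact 95% intervals, and a denominator under 3 UMIs was set to 3. Named were the 8 members with the highest level, the 6 with the largest ratio in each direction between fibroblasts and endothelial cells and in Ptprc cells, and the 4 in each endothelial group, past the fold and with at least 50 UMIs. Types and coordinates came from GENCODE for GRCm38, and sequences from RefSeq. Doublets were not called; cells over 15000 UMIs were left out as an alternative. Members and lists were chosen with earlier results of these data known. Calculations used Python 3.11.15, NumPy 2.4.6, pandas 2.3.3, SciPy 1.17.1 and Matplotlib 3.10.9, and the ratio and interval steps were tested on simulated data. The neighbouring genes of some members are not reported here.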

Additional observations from a re-analysis of the deposited data

Results flagged for a closer look

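Transcripts with provisional symbols that were found in fewer than 1% of cells lie outside the comparisons above, and some of them were as restricted as the members. In fibroblasts over endothelial cells, 4933416E03Rik had 100 and 3 UMIs, a ratio of 85.8. Gm42609, antisense to Dclk1, had 58 and 3, a ratio of 49.7. Gm37754, upstream of the defining gene Dpt, had 56 and 2, a ratio of at least 48.0 at the floor of 3 UMIs. In endothelial cells over fibroblasts, B230312C02Rik, beside Gata5, had a ratio of 8.42 (65 and 3 UMIs), Gm13715 one of 8.36 (86 and 4) and Gm37336 one of 5.13 (66 and 5). In Ptprc cells, Gm14221, divergent from Top1, had a ratio of 98.1 (72 and 22 UMIs), Gm13814 one of 83.4 (89 and 32) and Gm20528 one of 51.5 (55 and 32).

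A further 114 cells in none of the groups had at least 2 UMIs of Mlph, the gene of melanophilin, which moves pigment granules. With 1 marker they are given no cell type name. Against fibroblasts and endothelial cells together, Gm13963, antisense to Fmn1, had 113 and 66 UMIs, a ratio of 218, and 4930533B01Rik at the same gene 22 and 16, a ratio of 175, with Fmn1 at 153. Gm16152 had a ratio of 17.4 beside Aff3 at 18.4, and 6030407O03Rik one of 15.0 beside Tns1 at 0.532. The miR-181 host Gm4258 had a ratio of 4.16 (levels 4.11 and 0.989), and its locus partners A430106G13Rik, Gm26936 and Gm26930 had 8.12, 5.06 and 5.0. Gm973, A330015K06Rik and 1700019D03Rik had ratios of 5.84, 4.25 and 4.02.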

How the results depend on the processing

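No paired analysis was possible because the barcodes name no sample, and no library could be left out for the same reason. Changing the threshold to 5% of cells left 71 members, of which 3, 6, 3, 0, 4 and 2 passed the fold for fibroblasts, endothelial cells, Ptprc cells and the Prox1, Tmem163 and Selp groups. At 0.5% the counts were 38 for fibroblasts, 25 for Ptprc cells and 17, 25 and 35 for the endothelial groups. At 2-fold 53, 32 and 24 members passed in the 3 cell-type comparisons, and at 8-fold 9 in endothelial and 6 in Ptprc cells. Among the endothelial groups 21, 36 and 44 passed at 1.5-fold and 3, 2 and 5 at 4-fold. Splitting by both genes of a pair gave 16 for Prox1 and 33 for Tmem163, and assigning each cell to the pair with the most UMIs gave 7 for Tmem163 and 13 for Selp. The smaller run alone gave 9 endothelial, 46 Tmem163 and 39 Selp members. Under these alternatives the share of all genes tested was not counted. Whether these counts differ from those of other genes under the same change is therefore not known. Fibroblast members with a matching gene within 10000 bases were 73.3%, against 52.2% by row. Of the named ratios, Gm13986 (0, from 0 and 7 UMIs, in the Selp group) turned in the smaller run and 2700033N17Rik (0.656) with both genes of a pair. Among members past a fold but not named there, Gm26671, A330015K06Rik, Gm36569, Gm19461 and A430018G15Rik also turned in the smaller run, and Gm37184 had no UMI in the endothelial groups compared. The smaller run took 15 of 30 named ratios outside their intervals, as D630003M21Rik from 48.7 to 100.8 and 2610203C22Rik from 142 to 440.3, and thinning took 6, as 4931422A03Rik from 24.4 to 65.0. Over all alternatives 32 ratios moved so and 254 did not. Gm16685 fell from 18.5 to 3.14 with the most-UMI pair. Of the other counts and shares, 77 stayed within 1.5 times, or for shares inside their interval, among them those after thinning to 2000 UMIs and without cells over 15000. The causes were not tested. Where a group had under 3 UMIs, the depth sets only a bound on a ratio.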
